A study of Danio rerio with 12 samples.

Results

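Annexins 1 to 5 of the zebrafish eye were read from every probe set annotated to a gene whose symbol starts with anxa1, anxa2, anxa3, anxa4 or anxa5, leaving out anxa11 and anxa13. The rule used the annotation alone. It found 9 genes of the 8793 named on the array, read by 14 of the 15502 probe sets that are not Affymetrix controls. They were anxa1a, anxa1b, anxa1c, anxa2a, anxa2b and anxa3b with 1 probe set each, anxa1d and anxa4 with 2 each, and anxa5b with 4. Of the 14 probe sets, 10 were bright enough to be tested, and these belonged to 7 genes. The 4 that were not tested were both of anxa1d, the one of anxa2b and the anxa5b probe set ending in A1_at. Where a gene has several probe sets they are told apart by the ending of the manufacturer's name, such as S1_at.

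The fish were wild type adult male Danio rerio. In the ONX groups the nerve of the left eye had been crushed, and in the SHAM groups the right eye of those fish had been pulled from its orbit and put back with the nerve left intact, so that both groups carried an operation and shared their fish. The labels do not tie a numbered ONX pool to the SHAM pool of that number, and the pools were compared as independent samples. Whole eyes, lens and anterior and posterior segments included, were taken at days 4, 12 and 21 and pooled by 5. Each of the 6 groups held 2 pools, named as biological replicates by the labels, and each pool was read on 1 array, which makes 12 arrays and means that their number limits the precision of every value. Sampling a whole eye means that fewer cells of a type and less RNA per cell cannot be told apart in any of the values below.

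Annexins are proteins that bind negatively charged phospholipids when calcium is present, and they gather at membranes that are trafficking, torn or exposed on dying cells. In mammals, annexin A1 is induced by glucocorticoids and limits the entry of neutrophils into inflamed tissue, annexin A2 forms a complex with S100A10 that binds plasminogen at the cell surface, and annexin A5 binds phosphatidylserine on the outside of apoptotic cells. Annexins A3 and A4 are best known in mammals from neutrophils and from epithelia. Zebrafish carry several copies of annexin 1, and anxa1b and anxa1c are neighbours in the RefSeq gene table used for the names. A difference here is ONX minus SHAM on the scale of log2(signal + 16), given with the standard error of the fit, and "called" means an adjusted p under 0.05 in limma's test with Benjamini-Hochberg adjustment over all 9301 tested probe sets.

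Every array had a trimmed mean signal of 500.1, and the median signal lay between 199.9 and 238.4. One array stood apart: ONX day 4 pool 1 had Spearman correlations of 0.717 to 0.810 with the others, against 0.851 to 0.973 among the other 11, and its 16 oocyte markers summed to a log2 signal of 17.13 against 9.30 in ONX day 4 pool 2 and 8.58 and 9.76 in the SHAM day 4 pools. Oocyte genes go against the male sex that the labels give, and this array is 1 of the 2 behind every ONX mean of day 4. The markers of rods, cones and lens that define the tissue were bright on every array. A pair of day 12 arrays went against their labels in gap43, the growth-associated gene of regrowing axons. Its log2 signal was 7.65 and 7.73 in the SHAM and 12.09 and 12.22 in the ONX pools at day 4, but 12.68 in SHAM day 12 pool 1, 7.85 in pool 2, 7.95 in ONX day 12 pool 1 and 12.32 in pool 2. The differences between ONX and SHAM at day 12, and the day 12 values of the anxa1 genes, are therefore given with and without the libraries labelled SHAM day 12 pool 1 and ONX day 12 pool 1. The fit shares its estimate of the spread among the 6 groups. Both libraries thus also enter the standard errors, intervals and calls of days 4 and 21. At day 21 gap43 was 10.15 and 9.18 in the SHAM and 7.93 and 9.38 in the ONX pools. It thus did not separate the groups at day 21 either. Both SHAM pools were above those of day 4, and ONX pool 1 was close to the SHAM pools of day 4.

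At day 4 after the crush, anxa5b and anxa4 were the annexins with a called difference, and in anxa4 the 2 probe sets went opposite ways. One anxa5b probe set was called higher in ONX eyes, 2.96-fold, and 1 anxa4 probe set was called lower, 2.33-fold. The other anxa4 probe set, at 2.02-fold higher, was just outside the threshold. The 3 tested anxa1 genes had differences between -0.21 and 0.07, none called. Of the 10 tested probe sets 1 was thus called higher, where 5.29% of all tested probe sets were, and 1 was called lower, where 11.7% were. In either direction that is 2 of 10 beside 17% of all, a share close to the background. Both ONX pools lay above both SHAM pools in 5 of the 10, against 24.1% of all tested probe sets, and below in 1, against 36.1%. The median difference of the 10 was 0.88 and that of all tested probe sets -0.09. A difference above 0 was seen in 7 of 10 and in 44.7% of all, and an unadjusted p under 0.05 in 4 of 10 and in 36.9% of all. The 10 probe sets belong to 7 genes, so these shares and the median count some genes more than once. All tested anxa5b probe sets had both ONX pools above, and anxa4 had 1 probe set above and 1 below. The 2 calls rest on few arrays: without SHAM day 4 pool 1, SHAM day 4 pool 2 or ONX day 4 pool 1 no member was called, and no probe set of the whole array was.

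**Figure D1:**
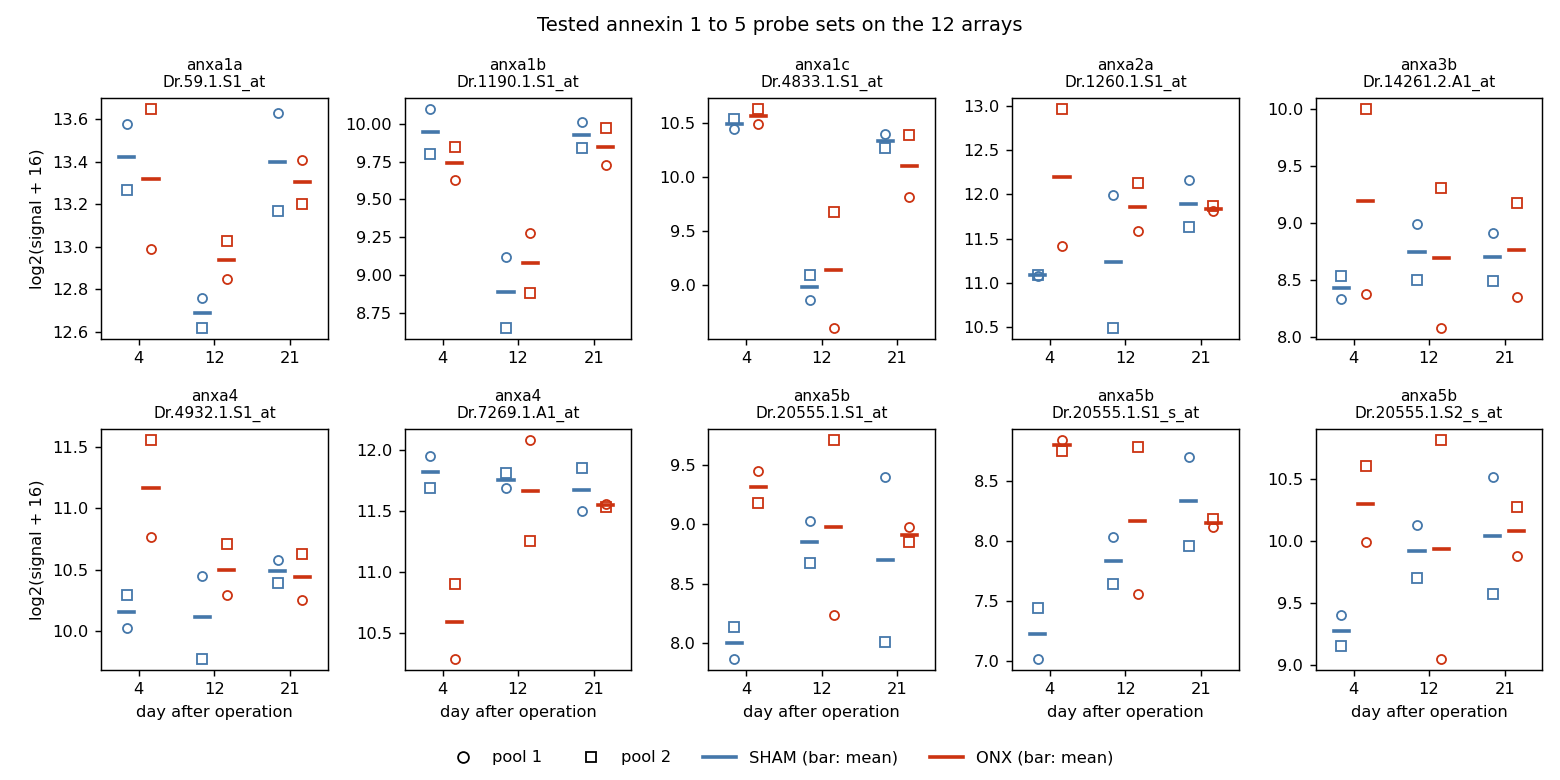
log2(signal + 16) of the 10 tested annexin probe sets on the 12 arrays by day after the operation, with SHAM in blue, ONX in red, pool 1 as circles, pool 2 as squares and group means as bars. At day 4 the ONX pools of anxa5b and of anxa4 S1_at lie above the SHAM pools and those of anxa4 A1_at below, and anxa1b and anxa1c are lowest on the 4 day 12 arrays.

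Of the 4 probe sets of anxa5b, the gene for a phosphatidylserine-binding annexin, the one ending in S1_s_at was the one called. Its log2 signal at day 4 was 7.02 and 7.44 in the SHAM pools and 8.84 and 8.75 in the ONX pools. Both ONX pools were thus high, close to each other, and clear of the SHAM pools. The difference was 1.56 ± 0.38 (adjusted p = 0.0262, limma with Benjamini-Hochberg adjustment), with a 95% interval of 0.71 to 2.42. Set against the SHAM mean, the first ONX pool was higher by 1.61 and the second by 1.52. Without ONX day 4 pool 1 the adjusted p was 0.0942. The ending _s_at marks a probe set that may read more than 1 transcript.

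The other bright anxa5b probe sets lay the same way at day 4 without being called. Probe set S1_at read 7.87 and 8.14 in the SHAM pools and 9.45 and 9.18 in the ONX pools, a difference of 1.31 ± 0.49 (adjusted p = 0.0864). Probe set S2_s_at read 9.40 and 9.15 in the SHAM pools and 9.99 and 10.60 in the ONX pools, a difference of 1.02 ± 0.51 (adjusted p = 0.172). In both, the ONX pools did not overlap the SHAM pools. The 3 probe sets are annotated to 1 gene and are read here as repeated readings of it, not as 3 results. Which transcripts they read was not tested. Over the 12 arrays they correlated at r = 0.84 to 0.90 with each other. The 95% intervals, 0.22 to 2.40 and -0.11 to 2.14, both contain the value of the called probe set.

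The 2 probe sets annotated to anxa4, which encodes a calcium-dependent membrane-binding protein studied mostly in epithelia of mammals, disagreed. Probe set A1_at read 11.95 and 11.69 in the SHAM pools and 10.29 and 10.90 in the ONX pools at day 4. Both ONX pools were below every other array of the study. The difference was -1.22 ± 0.29 (adjusted p = 0.0251), with an interval of -1.87 to -0.57. Probe set S1_at read 10.02 and 10.29 in the SHAM pools and 10.77 and 11.56 in the ONX pools, and here both ONX pools were above every other array. That difference was 1.01 ± 0.31 (adjusted p = 0.05003), with an interval of 0.32 to 1.70. Across the 12 arrays the 2 probe sets ran against each other, with r = -0.69, and r = -0.85 over the 11 arrays without ONX day 4 pool 1. Which transcripts the 2 probe sets read was not tested, so no single direction is given for anxa4. Without ONX day 4 pool 1 neither was called, at -0.92 for A1_at (adjusted p = 0.111) and 1.40 for S1_at (adjusted p = 0.0739). Whether they were called depended on the setting: anxa4 S1_at was called in 11 of 27 alternatives and A1_at in 20 of 27, each with 1 sign in all of them.

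**Figure D2:**
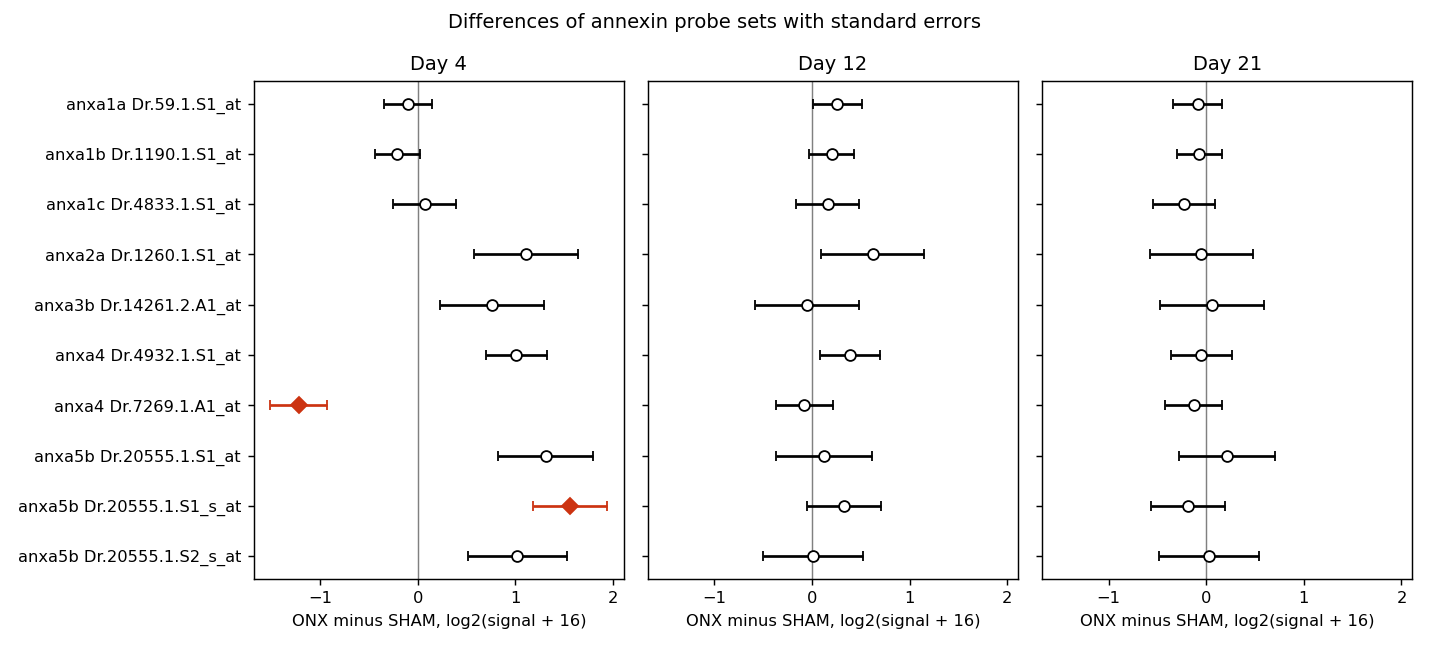
ONX minus SHAM at days 4, 12 and 21 for the 10 tested annexin probe sets in log2 units, with bars of 1 standard error and filled diamonds for called differences. At day 4, anxa5b S1_s_at at 1.56 and anxa4 A1_at at -1.22 are called, and no probe set is called at days 12 and 21.

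For anxa2a, a homologue of the plasminogen-binding annexin A2, the day 4 pools read 11.08 and 11.09 in SHAM and 11.42 and 12.97 in ONX eyes. Both ONX pools were above both SHAM pools, but they were far apart from each other. The difference of 1.11 ± 0.53 was not called (adjusted p = 0.154, interval -0.06 to 2.28). Of the ONX pools, the first was 0.33 and the second 1.88 above the SHAM mean. For anxa3b, a homologue of the annexin known from human neutrophils, the pools read 8.33 and 8.53 in SHAM and 8.38 and 10.00 in ONX eyes. ONX pool 1 lay among the SHAM pools and pool 2 far above them. The difference of 0.76 ± 0.53 was not called (adjusted p = 0.320, interval -0.43 to 1.94). In both genes the ONX value depended on the pool: without ONX day 4 pool 2 the differences were 0.33 and -0.05. Without ONX day 4 pool 1, the array that stood apart from the others, they were 1.88 and 1.57.

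The anxa1 genes, homologues of the glucocorticoid-induced annexin A1, showed no called difference at day 4. For anxa1a the pools read 13.58 and 13.27 in SHAM and 12.99 and 13.65 in ONX eyes, a difference of -0.10 ± 0.25 (interval -0.65 to 0.45). For anxa1b the difference was -0.21 ± 0.23 (-0.73 to 0.31), and for anxa1c 0.07 ± 0.32 (-0.63 to 0.78). ONX and SHAM pools overlapped in all 3 genes.

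The lowest group means of the anxa1 genes were those of day 12, though the tests between days, given below, did not call them. For anxa1b the 4 day 12 arrays read 9.12 and 8.65 in SHAM and 9.28 and 8.88 in ONX pools, and the other 8 arrays 9.63 to 10.10. For anxa1c the day 12 arrays read 8.87 and 9.10 in SHAM and 8.61 and 9.68 in ONX pools, and the others 9.82 to 10.63. All 4 day 12 arrays were thus below the other 8 in both genes, whichever eye was sampled. The same was true of 54 of the 9301 tested probe sets, or 0.581%, against 2 of the 10 annexins, and the opposite pattern of 0.602% and 0 of 10. The day 12 mean was lower by 1.85-fold in anxa1b and by 2.48-fold in anxa1c. In anxa1a it was lower by 1.46-fold, with day 12 arrays at 12.62 to 13.03 and the others at 12.99 to 13.65, which overlap. Among the dim probe sets of anxa1d, S1_at read 5.72 to 5.92 at day 12 and 6.12 to 6.93 otherwise, and S1_x_at overlapped. This pattern was picked out after the values were seen, and it holds the 2 day 12 libraries that go against their labels.

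The lower day 12 level was seen in sham-operated and in crushed eyes. In the SHAM eyes day 12 differed from days 4 and 21 by -1.06 in anxa1b and -1.43 in anxa1c, and in the ONX eyes by -0.72 and -1.19. Without the 2 libraries that go against their labels, the remaining pool differed by -1.29 and -1.32 in SHAM eyes and by -0.92 and -0.66 in ONX eyes. The change of the ONX effect between the 3 days was not called in either gene by limma's F-test (adjusted p = 0.799 in anxa1b and 0.901 in anxa1c). No call came from limma's F-test of the SHAM groups between days, which called 0 of 9301 probe sets (0%). In that test anxa1b and anxa1c each had an unadjusted p of 0.0013 (adjusted p = 0.757). With anxa1a and anxa5b S1_s_at, 4 of 10 members had an unadjusted p under 0.05, against 1.85% of all tested probe sets. In the F-test of the ONX groups, added after the values were seen, anxa1c had an adjusted p of 0.067 and anxa1b of 0.111. That test called 0 of 10 members and 0.333% of all, with an unadjusted p under 0.05 in 3 of 10 and 26.3%. Without those 2 libraries limma called neither gene in the SHAM eyes (adjusted p = 0.596 in anxa1b and 0.71 in anxa1c), where it called 0% of all, or in the ONX eyes (0.0916 and 0.144), where it called 3.54%. Scaled to the hybridisation controls, anxa1c overlapped, with day 12 arrays up to 9.80 and the others from 9.73. As deposited, and under quantile normalization, median centring and scaling to the poly-A controls, anxa1b and anxa1c did not overlap, and anxa1b did not under the hybridisation controls either.

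Markers of the surface epithelium moved with the anxa1 genes. The list holds keratins, claudins and other genes of the skin and cornea, and 18 of its 21 genes were on the array. Their summed log2 signal was 15.88 to 16.26 on the day 12 arrays and 16.24 to 16.63 on the other 8. All 18 had a lower mean at day 12, with differences from -0.14 in krt5 to -1.27 in capn9, where 44.6% of all tested probe sets had one. Of the 18, 16 were bright enough to be tested. The list was chosen with earlier results of these data known, so its share is not independent of them. Over the 12 arrays the sum and anxa1a correlated at r = 0.93, anxa1b at 0.84 and anxa1c at 0.83. Over the 8 arrays of days 4 and 21 alone the correlations were 0.79, 0.72 and 0.54. These are descriptions over arrays that share scaling, fish and the 3 days. Their part in the day 12 values was not tested.

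**Figure D3:**
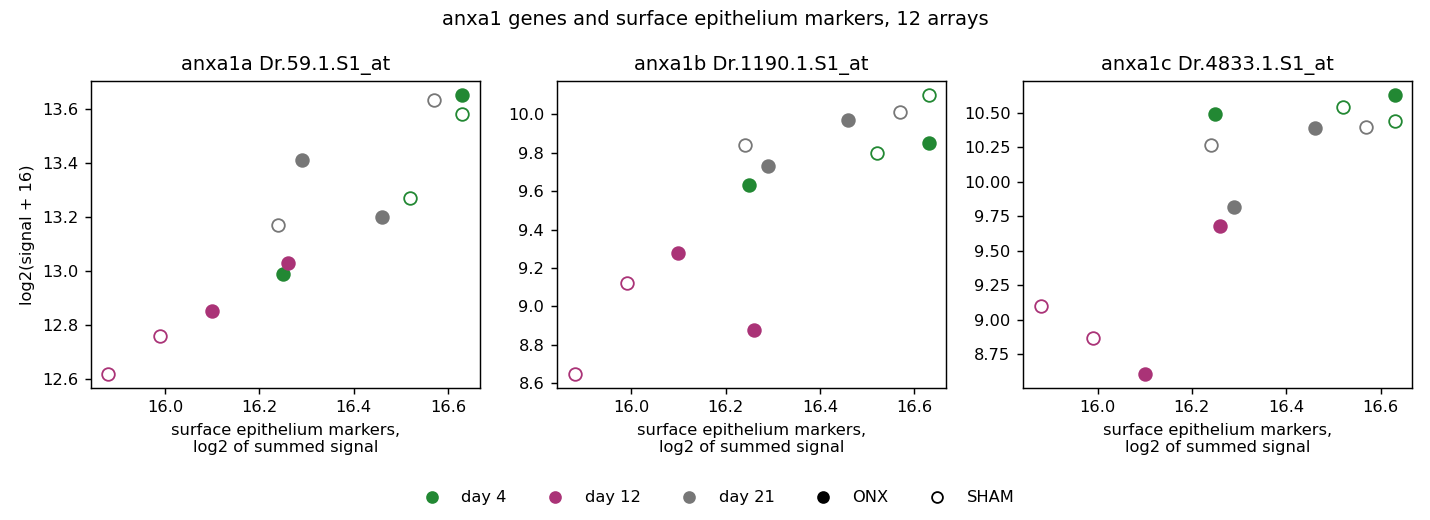
log2(signal + 16) of anxa1a, anxa1b and anxa1c on the vertical axes against the log2 summed signal of 18 surface epithelium markers on the 12 arrays, coloured by day, with ONX filled and SHAM open. The 4 day 12 arrays hold the lowest 3 marker sums and the lowest values of anxa1b and anxa1c.

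At day 12 no probe set of the array was called, 0 of 9301 in limma's test (0%), and 0.29% had an unadjusted p under 0.05, with 0 of 10 annexins. The member differences lay between -0.08 and 0.62, with a median of 0.18 against -0.01 for all. They were above 0 in 8 of 10, and in 48.2% of all. Only anxa1a had both ONX pools above both SHAM pools (7.29% of all), at 12.85 and 13.03 against 12.76 and 12.62, and none had both below (7.48% of all). The pools of a group were far apart. The median SD of the 10 members between the 2 ONX pools was 0.67, against 0.23 over all tested probe sets, and between the SHAM pools 0.29 against 0.17.

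The pools that were high in gap43 at day 12 were also the high ones in anxa5b. Probe set S2_s_at read 10.13 in the library labelled SHAM pool 1 and 9.70 in pool 2, and 9.05 in the library labelled ONX pool 1 and 10.81 in pool 2. Probe set S1_at read 9.03, 8.68, 8.24 and 9.71 in the same order, and S1_s_at read 8.03, 7.64, 7.56 and 8.78. In each probe set the library labelled ONX pool 1 was the lowest of the 4 and ONX pool 2 the highest. Without the 2 libraries that go against their labels, 1 pool was left on each side at day 12, and its spread was taken from the other groups. The differences were then 1.03 in anxa5b S1_at, 1.14 in S1_s_at and 1.11 in S2_s_at, 1.64 in anxa2a, 0.94 in anxa4 S1_at, -0.56 in anxa4 A1_at, 0.81 in anxa3b and 0.23 to 0.58 in the anxa1 genes. None was called (adjusted p = 0.753 to 0.959), and no probe set of the array was.

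**Figure D4:**
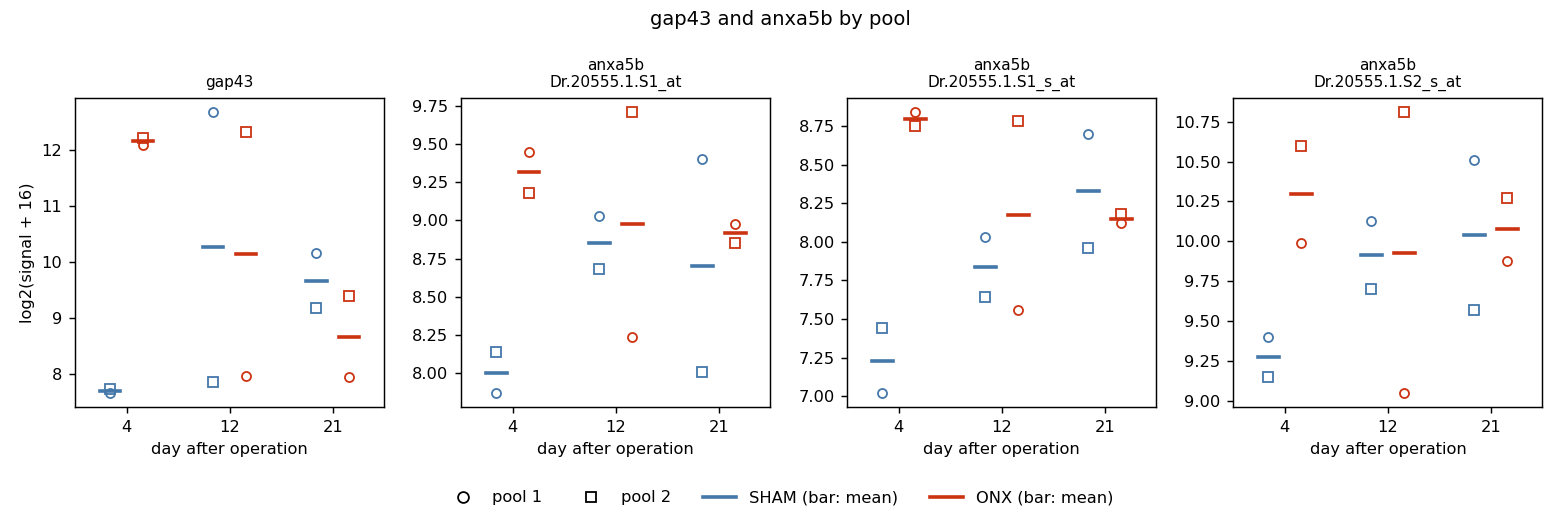
log2(signal + 16) of gap43 and of the 3 tested anxa5b probe sets by day after the operation, with SHAM in blue, ONX in red, pool 1 as circles, pool 2 as squares and means as bars. At day 12, gap43 is at 12.68 in SHAM pool 1 and 7.95 in ONX pool 1, and anxa5b is lowest in ONX pool 1.

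At day 21 no annexin was called, and the ONX and SHAM pools overlapped in all 10 probe sets. The gap43 signal did not separate these ONX and SHAM pools either, which limits the comparison. The differences lay between -0.23 and 0.21, with a median of -0.06 and 0.00 for all tested probe sets. No probe set of the array was called by limma (0%), 0.129% had an unadjusted p under 0.05, and 0 of 10 members did. No member had both ONX pools above (12.1% of all) or below (11.6% of all) both SHAM pools, and 3 of 10 lay above 0, as did 50.1% of all. The interval of anxa5b S1_s_at at day 21, -1.04 to 0.67, did not reach its day 4 value of 1.56, whose own interval began at 0.71. That of S2_s_at, -1.09 to 1.16, held its day 4 value of 1.02. That of S1_at, -0.88 to 1.30, ended just below its day 4 value of 1.31. The test between days, given below, called none of them. The pools of S1_s_at read 8.70 and 7.96 in SHAM and 8.12 and 8.18 in ONX eyes, so that the SHAM pools held both the highest and the lowest of the 4. Those of anxa4 A1_at read 11.50 and 11.85 in SHAM and 11.56 and 11.53 in ONX eyes, which overlap.

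Whether the effect of the crush changed between days was tested directly with limma's F-test across the 3 days. It called 0 of 9301 probe sets (0%), and 14.1% had an unadjusted p under 0.05. Among the annexins 2 of 10 did. Of these, anxa5b S1_s_at had an adjusted p of 0.291 and anxa4 A1_at of 0.313. The day 4 calls are therefore not shown to differ from days 12 and 21.

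Ordered by group mean, anxa5b S1_s_at was highest in ONX eyes at day 4, at 8.80 ± 0.06 (SD, n = 2). SHAM day 21 came next at 8.33 ± 0.52, then ONX day 12 at 8.17 ± 0.86, ONX day 21 at 8.15 ± 0.04, SHAM day 12 at 7.84 ± 0.27 and SHAM day 4 at 7.23 ± 0.29. The pools of the highest group, at 8.75 and 8.84, did not overlap the next by mean, but ONX day 12 pool 2 lay between them at 8.78. The 3 middle groups overlapped. SHAM day 12, at 7.64 and 8.03, was apart from its neighbours in the order but overlapped SHAM day 21 and ONX day 12. SHAM day 4 lay below all the other groups. The SHAM eyes of day 4 were thus the lowest group and the ONX eyes of day 4 the highest. The same 2 groups were the ends of the order in S1_at (9.31 ± 0.19 and 8.00 ± 0.19) and S2_s_at (10.29 ± 0.43 and 9.28 ± 0.18).

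Gene anxa2a also ran from ONX day 4 at 12.19, with pools at 11.42 and 12.97, to SHAM day 4 at 11.08 ± 0.01, with every neighbour overlapping. In anxa3b the order ran from 9.19 ± 1.15 to 8.43 ± 0.14 between the same groups, again with every neighbour overlapping. For anxa4 A1_at the 5 groups other than ONX day 4 lay between 11.55 ± 0.03 and 11.82 ± 0.19. Neighbours in the order overlapped among these 5, but ONX day 21 lay below both SHAM day 4 and SHAM day 12. ONX day 4 stood apart at 10.60 ± 0.43. Probe set S1_at was at 11.17 ± 0.55 in ONX day 4, apart from the other 5 groups at 10.11 ± 0.48 to 10.50 ± 0.30. Neighbours among those 5 overlapped, but not every pair did, since SHAM day 21 lay above SHAM day 4. In anxa1b the order broke between ONX day 4 at 9.74 ± 0.15 and ONX day 12 at 9.08 ± 0.29, and SHAM day 12 was last at 8.88 ± 0.33. In anxa1c the widest break was between ONX day 21 at 10.11 ± 0.40 and ONX day 12 at 9.14 ± 0.76, and the pools of SHAM day 4 also did not overlap those of SHAM day 21.

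The 4 dim probe sets gave no call when all probe sets were fitted without the filter. At day 4 their differences were 0.10 ± 0.32 and -0.03 ± 0.31 for anxa1d, 0.62 ± 0.51 for anxa2b and 0.50 ± 0.50 for anxa5b A1_at. The adjusted p-values lay between 0.447 and 0.964. Most anxa2b readings were between 4.33 and 5.02, close to the value of 4 that a signal of 0 would take, with 5.72 in ONX day 4 pool 2 and 5.67 in SHAM day 21 pool 2 as the exceptions. For anxa5b A1_at the 12 arrays spanned 4.23 to 5.79. Signals this dim limit what can be seen of these genes.

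Cell type markers were set beside the annexins at day 4, where limma called 5.29% of all tested probe sets higher, 11.7% lower and 36.9% had an unadjusted p under 0.05. Of the microglia and macrophage list 17 of 25 genes were on the array, summing to a log2 signal of 15.53 and 15.88 in the ONX pools and 15.11 to 15.19 in the SHAM pools. Of its 16 tested genes 3 were called higher and 0 lower, with a median of 1.28. The 7 neutrophil genes on the array summed to 11.15 to 12.42 in ONX and 10.43 to 11.41 in SHAM pools, which overlap, with 0 of 6 called by limma and 1 at an unadjusted p under 0.05. The 7 fibroblast and stroma genes summed to 14.31 to 15.41 and 13.27 to 13.79, with a median difference of 1.76 over 6 tested genes. None of these 6 was called higher by limma (3 had an unadjusted p under 0.05), and 1, the cornea gene kera for keratocan, was called lower at -1.61 ± 0.33 (adjusted p = 0.0176). Rod markers, 7 of 12 on the array, summed to 15.58 and 15.82 in the ONX pools and 16.78 and 16.81 in the SHAM pools, and 7 of 7 were called lower. The 6 retinal ganglion cell genes summed to 11.78 to 12.20 in ONX and 13.37 to 13.45 in SHAM pools, with 5 of 5 tested called lower. Cone markers summed to 16.34 and 16.60 in the ONX pools and 17.48 in both SHAM pools, with 7 of 8 called lower. Lens markers summed to 14.24 and 14.84 against 15.45 and 15.65, with 2 of 4 called lower. Red blood cell markers summed to 13.24 and 13.43 against 14.10 and 14.60, with 1 of 5 called lower. Lower sums were thus not particular to rods and retinal ganglion cells. The lowest signal in the table was 0.17, so a marker signal above 0 does not show that the gene was expressed.

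The sums add the signals of each list, so that its brightest genes weigh most. In the microglia and macrophage list apoeb, cd74a and cd74b had median signals of 14100, 11700 and 5300, and ctss2.1 reached 13800. At day 4 apoeb, cd74a and cd74b differed by 0.25, -0.24 and -0.18 and were not called, while ctss2.1 was called higher at 4.07. The gene apoeb is also in a list of Mueller glia markers, so it is not particular to microglia here. Across all 12 arrays, anxa4 S1_at followed the microglia sum at r = 0.93, anxa3b at 0.83 and anxa2a and anxa5b S1_s_at both at 0.80. Without the 2 ONX day 4 arrays the values of the first 3 were 0.88, 0.88 and 0.77 over 10 arrays, and that of anxa5b S1_s_at was 0.75. Gene anxa3b followed the neutrophil and fibroblast sums as well, at 0.86 each, and anxa5b S1_s_at followed gap43 at 0.79 and the fibroblast sum at 0.78. The anxa5b probe set S2_s_at followed the fibroblast sum at r = 0.94, and at 0.94 over the 10 arrays without ONX day 4. The anxa4 probe set that fell, A1_at, followed the rod sum at r = 0.93, and at 0.69 over those 10. Over all 12 arrays it followed the cone, retinal ganglion cell and lens sums nearly as closely, at 0.92, 0.91 and 0.89. The relation was thus not particular to rods. Probe set S1_at ran against the rod, cone, retinal ganglion cell and lens sums, at -0.74, -0.73, -0.75 and -0.63. The arrays share scaling and fish, and the part of these cell types in the annexin values was not tested.

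The genes whose patterns were most like those of the annexins were taken as the 3 probe sets of other genes with the highest r over the 12 arrays. For anxa1a these were gpa33a (r = 0.955), col17a1b (0.918), a collagen of the epithelial anchoring complex, and krt4 (0.900), a keratin. For anxa1b they were wu:fb18f06, si:ch211-157c3.4 and gfus.2 (0.943 to 0.924), and for anxa1c si:ch211-207n23.2, si:dkey-247k7.2 and spint2 (0.952 to 0.889). For anxa2a they were nucb1, psmb10, a proteasome subunit, and tpm3, a tropomyosin (0.940 to 0.921). For anxa3b the closest was ptprc, the leukocyte phosphatase CD45 (0.975), then sdcbp2 (0.957) and atp6ap1b (0.950).

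The closest 3 genes of the 2 anxa4 probe sets had to differ, since the probe sets themselves correlated at r = -0.69. Those of S1_at were lasp1 (0.960), the leukocyte actin-binding gene coro1a (0.956) and denr (0.955). Those of A1_at were cox4i2 (0.978), a subunit of cytochrome c oxidase, atp6v0cb (0.977), a subunit of the vacuolar proton pump, and tnrc6c2 (0.974). For anxa5b, uchl3, a ubiquitin hydrolase, was among the closest of both S1_at (0.929) and S1_s_at (0.948). The tubulin genes tubb4b (0.919) and tuba8l4 (0.958) were there too, while S2_s_at was closest to hnrnpa0b (0.975), serpinh1b (0.968), a collagen chaperone, and col1a1a (0.967). Both ptprc and coro1a are also in the microglia and macrophage list, and col1a1a is in the fibroblast list.

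The other annexins of the array, anxa6, anxa11a, anxa11b, anxa13 and anxa13l, had 6 tested probe sets and 0 calls at day 4 (limma, with 1 at an unadjusted p under 0.05), with a median of 0.46. Of all tested probe sets limma called 17% at day 4, and 36.9% had an unadjusted p under 0.05. The nearest was anxa11a, at 9.56 and 9.63 in SHAM and 10.11 and 10.61 in ONX pools, where both ONX pools were above both SHAM pools. Its difference was 0.76 ± 0.26 (adjusted p = 0.0664).

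Of the S100 proteins, the small calcium-binding partners of annexins, 9 of 12 probe sets were tested and 0 were called by limma at day 4 (1 at an unadjusted p under 0.05), with a median of -0.28. Over all tested probe sets these shares were 17% and 36.9%. The gene s100a10b, a homologue of the partner of annexin A2, read 12.66 and 12.91 in SHAM and 12.60 and 13.18 in ONX pools at day 4, which overlap. Its difference was 0.11 ± 0.22 (adjusted p = 0.747). The untested s100a1 read 11.38 in ONX day 4 pool 1 and 4.16 to 5.75 on the other 11 arrays.

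In the plasminogen system 1 of 5 probe sets was tested, that of serpine2, an inhibitor of thrombin and plasminogen activators. It read 8.42 and 8.33 in SHAM and 10.28 and 9.64 in ONX pools, and it rose by 1.58 ± 0.34 (adjusted p = 0.0206). Limma called 5.29% of all tested probe sets higher at day 4. The 2 probe sets of plg, plasminogen itself, were dim and untested, at 4.14 to 5.42 over the 12 arrays. In the list of phosphatidylserine receptors and engulfment genes 0 of 10 tested probe sets were called by limma at day 4, against 17% of all. An unadjusted p under 0.05 was seen in 4 of the 10, against 36.9% of all, and their median was -0.26. The smallest p among them was that of elmo1, an engulfment adaptor, at -0.51 ± 0.19 (adjusted p = 0.0825).

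Among 22 tested probe sets of membrane repair genes 2 were called higher and 1 lower, with a median of 0.28, where 5.29% of all tested probe sets were called higher and 11.7% lower. The calpain gene capn2a rose by 0.95 ± 0.27 (adjusted p = 0.0385) and ehd1b, a membrane-remodelling ATPase, by 0.96 ± 0.23 (adjusted p = 0.0258). The gene otofa, for the ferlin otoferlin, fell by 1.57 ± 0.34 on the log2 scale (adjusted p = 0.0202). Otoferlin is known for transmitter release rather than repair.

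For the list of glucocorticoid and eicosanoid genes, 1 of 8 tested probe sets was called lower and 0 higher at day 4. That share is close to the 11.7% of all tested probe sets that were called lower. The called one was 1 of the 3 of nr3c1, which encodes the glucocorticoid receptor. It read 9.15 and 9.39 in SHAM and 7.92 and 8.73 in ONX pools and fell by 0.94 ± 0.28 (adjusted p = 0.0476). The 2 other nr3c1 probe sets were at -0.62 ± 0.26 and -0.51 ± 0.25 and were not called. The list median was -0.57, and that of all tested probe sets -0.09. At days 12 and 21 none of the 6 lists had a call in limma's test, and 0 of their probe sets had an unadjusted p under 0.05.

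The alternatives of processing moved the day 4 values as follows. The anxa5b probe set S1_s_at stayed between 1.31 and 2.04 in 26 alternatives and was called in 19. The anxa4 probe set A1_at stayed between -1.52 and -0.75 in 27 and was called in 20. The sign was the same in all of them. For anxa2a the range was 0.33 to 1.88 and for anxa3b -0.05 to 1.57 over 27 alternatives, and neither was called in any.

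**Figure D5:**
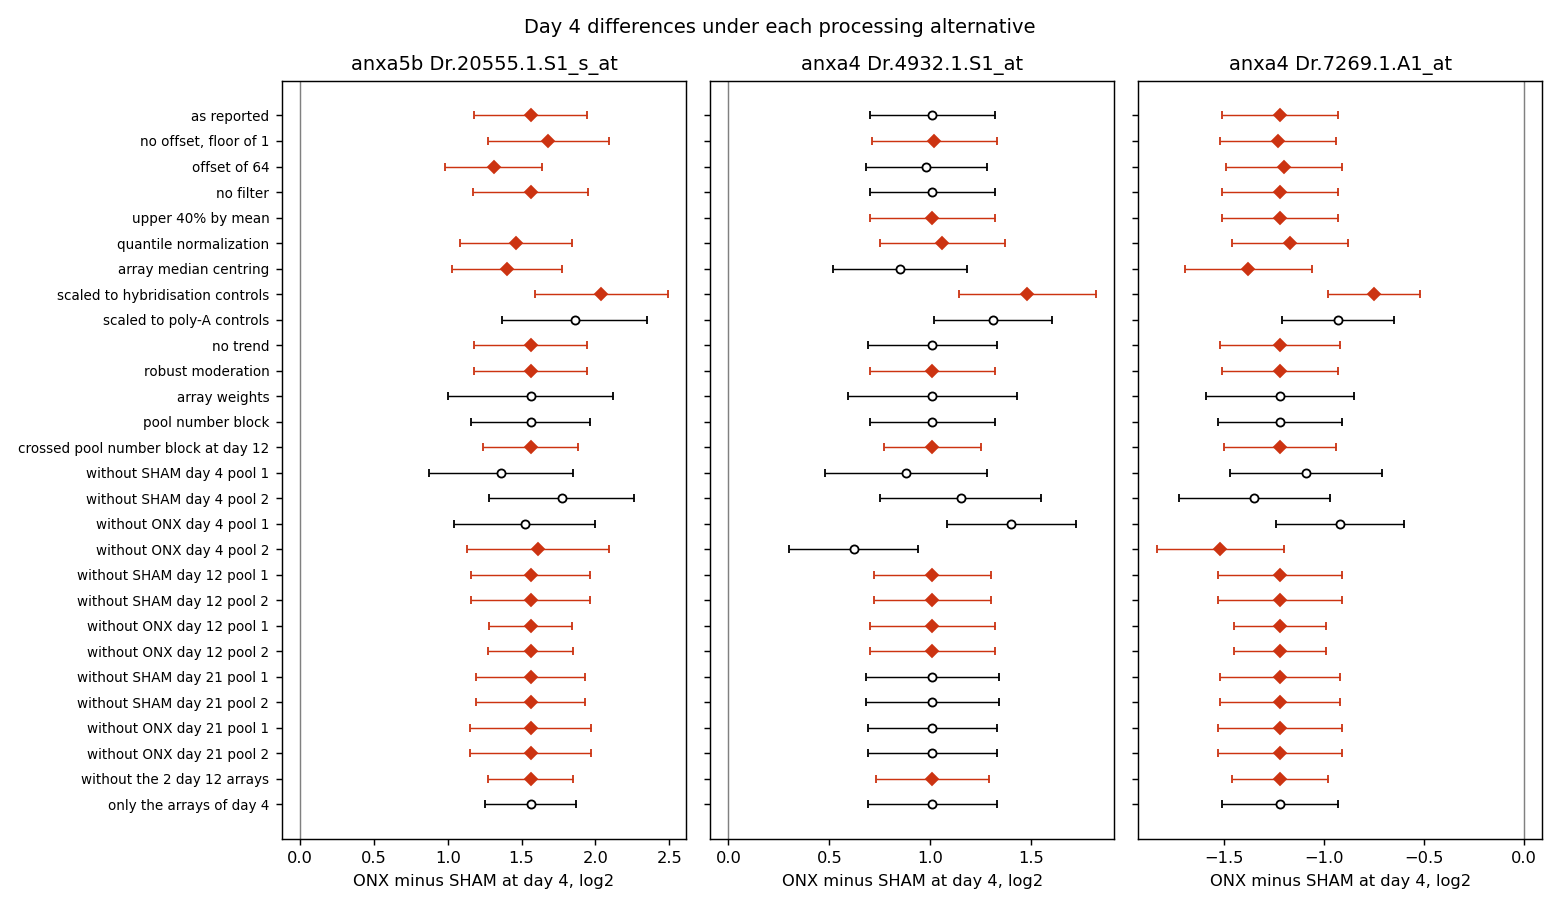
ONX minus SHAM at day 4 in log2 units under each processing alternative for 1 anxa5b and both anxa4 probe sets, with bars of 1 standard error, filled diamonds where called and open circles where not. No estimate crosses 0, and anxa5b S1_s_at was too dim to be tested in the upper 40%.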

How the data were processed

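RNA of whole-eye pools was hybridised to Affymetrix zebrafish arrays. Per the submitters' processing notes the authors used MAS5, and the deposited table gives its signal intensity for each probe set on each array. The MAS5 version and the scaling steps are not given in the sources used here. The table held 15617 probe sets on 12 arrays and 0 columns of other samples. Collection times earlier than day 4, which the labels' protocols name, were not analysed here.

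The 115 Affymetrix controls were set aside. Symbols came from the platform annotation: of the other 15502 probe sets 10795 carried a single symbol, 135 more than 1 and 4572 no symbol. A single symbol was updated, and 10711 were found in the RefSeq gene table. An offset of 16 was added, log2 was taken, and the upper 60% of probe sets by mean over all arrays was tested (9301, mean signal at least 136). The limma package (3.58.1, R 4.3.3) fitted 1 mean per group over all 12 arrays, with variances moderated along a trend with 6 residual degrees of freedom and 4.23 from the prior. Benjamini-Hochberg adjustment ran over all tested probe sets in each comparison. P-values measure the spread between pools. The fit was also run on simulated data with independent noise of equal spread in all groups. That simulation held no outlying array, so it cannot tell how such an array affects the calls. The members, the gene and marker lists and the alternatives were chosen with earlier results of these data known. Beyond the members, most genes were named because they were called members of a list, had the smallest p in it, or were among the 3 most correlated with a member. Outside these rules, krt5 and capn9 were named as the ends of a range, apoeb, cd74a and cd74b for their brightness, and gap43 beside the labels. The genes s100a10b, s100a1, plg and kera, and the 2 nr3c1 probe sets that were not called, were named after their values were seen. No sequences are given.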

Additional observations from a re-analysis of the deposited data

How the results depend on the processing

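At day 4 the count of called annexin probe sets was 2 as reported, where 1582 of all were called. It was 4 with arrays scaled to the 9 hybridisation controls, where 2429 of all were called. At an adjusted p under 0.1 it was also 4 (2813 of all), as with crossed pool numbers (1677). It was 0 with scaling to the 27 poly-A controls, array weights or the replicate block, where 0 of all 9301 were called. With only the arrays of day 4 it was 0 as well, where 10 of all were called. Probe sets at an unadjusted p under 0.05 numbered 2345, 2148, 3180 and 2281 in these 4 settings. Leaving out 1 array gave 0 to 4. Without SHAM day 4 pool 1, SHAM day 4 pool 2 or ONX day 4 pool 1 no annexin was called, nor was any other probe set. Without either ONX day 12 pool more annexins were called, and so were more of all probe sets. Each of these fits leaves 1 pool in a group. The cause of these changes was not tested. The median difference of all probe sets at day 4 moved from -0.09 to 0.38 with the hybridisation and 0.21 with the poly-A controls, and to -0.25 with median centring. With the hybridisation controls 2429 probe sets were called in place of 1582, and without ONX day 4 pool 2, 4008. Of the members' values at day 4, 227 were counted as unchanged, meaning still called, or still not called and within 1 standard error. A further 13 stayed uncalled but moved by 1 standard error or more, 15 became called and 14 lost the call. Values that stayed called were not checked for size. None changed direction while called.

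At days 12 and 21, for the effect between days and for the SHAM eyes between days, 0 annexins were called in every alternative run. In the ONX eyes between days, 0 as reported, 2 were called at an adjusted p under 0.1. Leaving out 1 array changed the count in some fits, as it did the count over all probe sets. Each such fit leaves 1 pool in a group.

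What the pool numbers stand for is not given in the labels. Deviations of same-numbered pools correlated at 0.12, -0.12 and -0.03 at days 4, 12 and 21, so the numbers are not shown to pair the samples. With the replicate block 0 annexins were called at every day, anxa5b S1_s_at having an adjusted p of 0.0582 and anxa4 A1_at of 0.0583. With pool numbers crossed at day 12, an alternative chosen after seeing the data, 4 were called at day 4. The block was not run for the tests within SHAM or ONX eyes, and 1 anxa5b probe set lay outside the upper 40%.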
